A study of Mus musculus with 20 samples.

Results

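Vnn1 and Vnn3 are neighbouring vanin genes, and the data described here are the chromatin intervals at both of them in fasted mouse liver. The members were the consensus intervals of 3 histone marks, H3K27ac, H3K4me1 and H3K9ac, with their midpoint in a gene body or within 20 kb of it. This rule gave 44 of the 215358 consensus intervals of the series. H3K27ac contributed 15 of 65776 intervals, 7 assigned to Vnn1 and 8 to Vnn3. H3K4me1 contributed 26 of 103014, 9 at Vnn1 and 17 at Vnn3, and H3K9ac 3 of 46568, 2 at Vnn1 and 1 at Vnn3. In mm10 (assembly GRCm38.p6) the RefSeq body of Vnn3 lies on chromosome 10 from 23851462 to 23869843 and that of Vnn1 from 23894688 to 23905344, so that 24844 bases separate them.

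The series profiled histone marks by chromatin immunoprecipitation and sequencing in livers of male C57BL/6 mice aged 9 weeks, all fasted for 24 h. It compared wild-type mice (WT), mice lacking Cpt2 in the liver (Cpt2 L-/-, here Cpt2 KO), mice lacking Ppara (Ppara -/-, here Ppara KO) and mice with both deletions (Cpt2 L-/-; Ppara -/-, here DKO). H3K27ac and H3K4me1 were each measured in 8 libraries, 2 for every genotype, and H3K9ac in 1 WT and 1 Cpt2 KO library. WT and Cpt2 KO are called Ppara-intact below, and Ppara KO and DKO are called Ppara-null. The driver of the liver deletion is not given in the sources used here, and no fed animals were among the samples.

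Vanins are pantetheinases, enzymes outside the cell that cut pantetheine into pantothenic acid (vitamin B5) and cysteamine. Pantothenic acid is the precursor of coenzyme A, the carrier of fatty acids during their oxidation, and cysteamine feeds into taurine formation and thiol balance. Ppara is a nuclear receptor of the liver that is activated by fatty acids during fasting and binds, with its partner Rxr, to DR1 elements, direct repeats of a half-site spaced by a single base. Vnn1 is a known Ppara target in hepatocytes. Cpt2 is the inner mitochondrial membrane enzyme that hands long-chain fatty acids to beta-oxidation. H3K4me1 is found at enhancers, H3K27ac at active enhancers and promoters, and H3K9ac mainly at active promoters.

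The sequence in front of the Vnn3 start is shown because the H3K27ac interval over the Vnn3 start, called in every library, begins within it. It is the 250 bases before the RefSeq start, on the plus strand of GRCm38.p6 at chr10:23851212-23851461, and the capitals mark the best match to a DR1 element.
Vnn3: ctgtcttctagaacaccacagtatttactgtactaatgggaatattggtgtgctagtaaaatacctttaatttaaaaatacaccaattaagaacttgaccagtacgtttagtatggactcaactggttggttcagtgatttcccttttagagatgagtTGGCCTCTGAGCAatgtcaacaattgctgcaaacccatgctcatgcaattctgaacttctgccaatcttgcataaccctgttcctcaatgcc
Both strands were searched for the DR1 element written as AGGTCA, any base, and AGGTCA again. The best match, on the minus strand from 92 to 80 bases before the start, differed at 3 of the 12 letters compared. Of 32536 promoter windows of the same length, 21.3% held a match at least as good, and 0.0338% held an exact one. The half-site AGGTCA, searched on its own and overlapping the DR1 element, was not present exactly in the Vnn3 window, although 14.0% of the windows had it. GC content was 39.2%, against a median of 52.4% over all windows. Vnn3 was the 1 member gene matched in the promoter table used here.

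**Figure D1:**
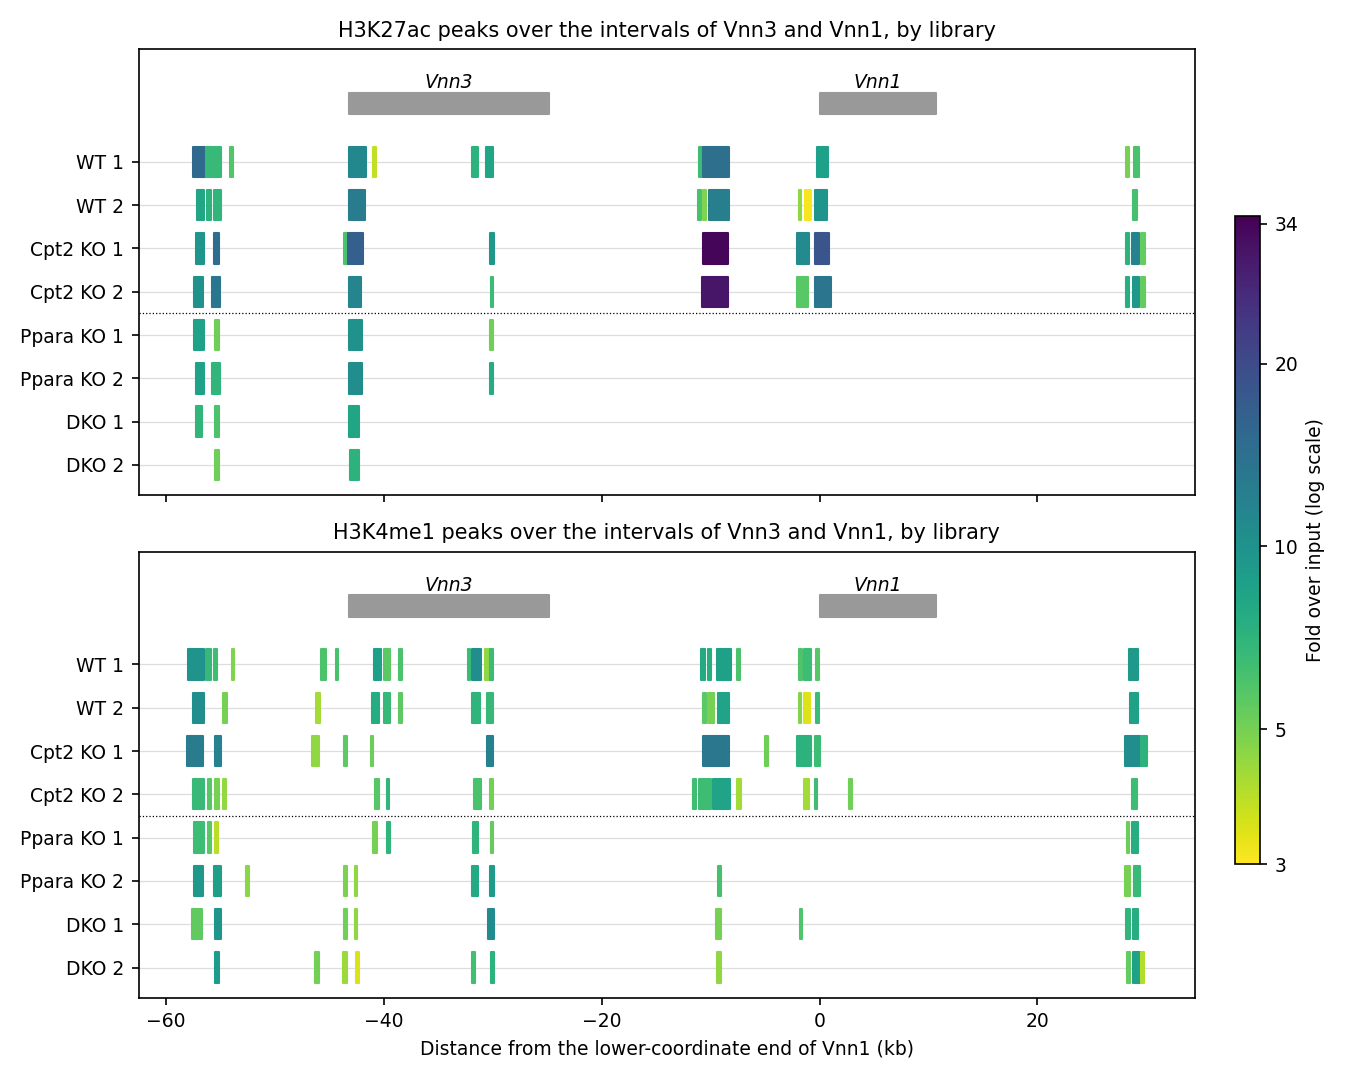
Peaks of each library over the intervals of Vnn3 and Vnn1, H3K27ac above and H3K4me1 below, by distance from the lower-coordinate end of Vnn1 in kb. Each bar is a called peak, coloured by its fold over input on a log scale, grey bars are the gene bodies, and the dotted line separates Ppara-intact from Ppara-null libraries. No H3K27ac peak of a Ppara-null library lies over an interval of Vnn1, while the interval over the Vnn3 lower end carries a peak in all 8 libraries.

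H3K27ac peaks at Vnn1 were called in Ppara-intact livers alone. None of the 7 intervals of Vnn1 had a peak in any of the 4 Ppara-null libraries, and all 7 had a peak in at least 1 Ppara-intact library. With 4 of the 8 Vnn3 intervals, 11 of the 15 H3K27ac members had peaks in at least 1 Ppara-intact and 0 Ppara-null libraries. Over all H3K27ac intervals that pattern had a share of 22.2%. The stricter pattern, a peak in all 4 Ppara-intact and 0 Ppara-null libraries, was met by 3 of the 15 members, all at Vnn1, against 0.725% of all intervals. The opposite pattern, peaks in at least 1 Ppara-null and 0 Ppara-intact libraries, had 0 of 15 members against 17.8% of all intervals.

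The strongest H3K27ac interval at either gene was a distal element 9.54 kb below the lower-coordinate end of Vnn1, at chr10:23883908-23886387. Values are fold enrichments over input at the highest overlapping peak, as deposited. They were 14.4 and 12.25 in the WT livers and 34 and 30.5 in the Cpt2 KO livers, and there was no peak in either Ppara KO or either DKO liver. The Cpt2 KO values therefore lay above both WT values, and the Ppara-null libraries gave no call. In WT replicate 1 the element was a single peak of 2421 bases, and in the Cpt2 KO livers it was a single peak of 2344 and 2383 bases. In WT replicate 2 it was split into peaks of 203 and 1834 bases. Its mean fold over the Ppara-intact libraries, 22.8, ranked 6 among the 477 intervals with the same strict pattern, whose median was 8.07 and whose highest value was 28.8.

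The interval over the lower-coordinate end of Vnn1, at chr10:23894245-23895696, followed the same order. Folds were 8.71 and 9.83 in WT and 18.3 and 13.4 in Cpt2 KO livers, with no peak in the 4 Ppara-null libraries. Its mean fold ranked 83 of the 477. The orientation of Vnn1 is not part of the tables used here, so that this end is named by its coordinate and not as the promoter. The third interval of the strict pattern, chr10:23923420-23924065, lies 18.4 kb above Vnn1 and only 2.34 kb from Taar1, a trace amine receptor gene. It gave 6.05 and 6.20 in WT and 11.7 and 9.52 in Cpt2 KO livers, and no peak in a Ppara-null liver.

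Smaller Vnn1 intervals completed the picture. The interval 1.45 kb below the gene, chr10:23892619-23893865, was called at 4.5 in WT replicate 2 and at 10.9 and 5.70 in the Cpt2 KO livers, and in no other library. Beside the Taar1 side element, chr10:23922789-23923144 was called at 5.0 in WT replicate 1 and at 7.24 and 7.52 in Cpt2 KO, and chr10:23924247-23924613 at 5.40 in both Cpt2 KO livers only. A call in both Cpt2 KO libraries and in 0 others was found for 1.83% of all H3K27ac intervals. Next to the distal element, chr10:23883530-23883867 was called in the WT livers only, at 6.44 and 6.16.

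**Figure D2:**
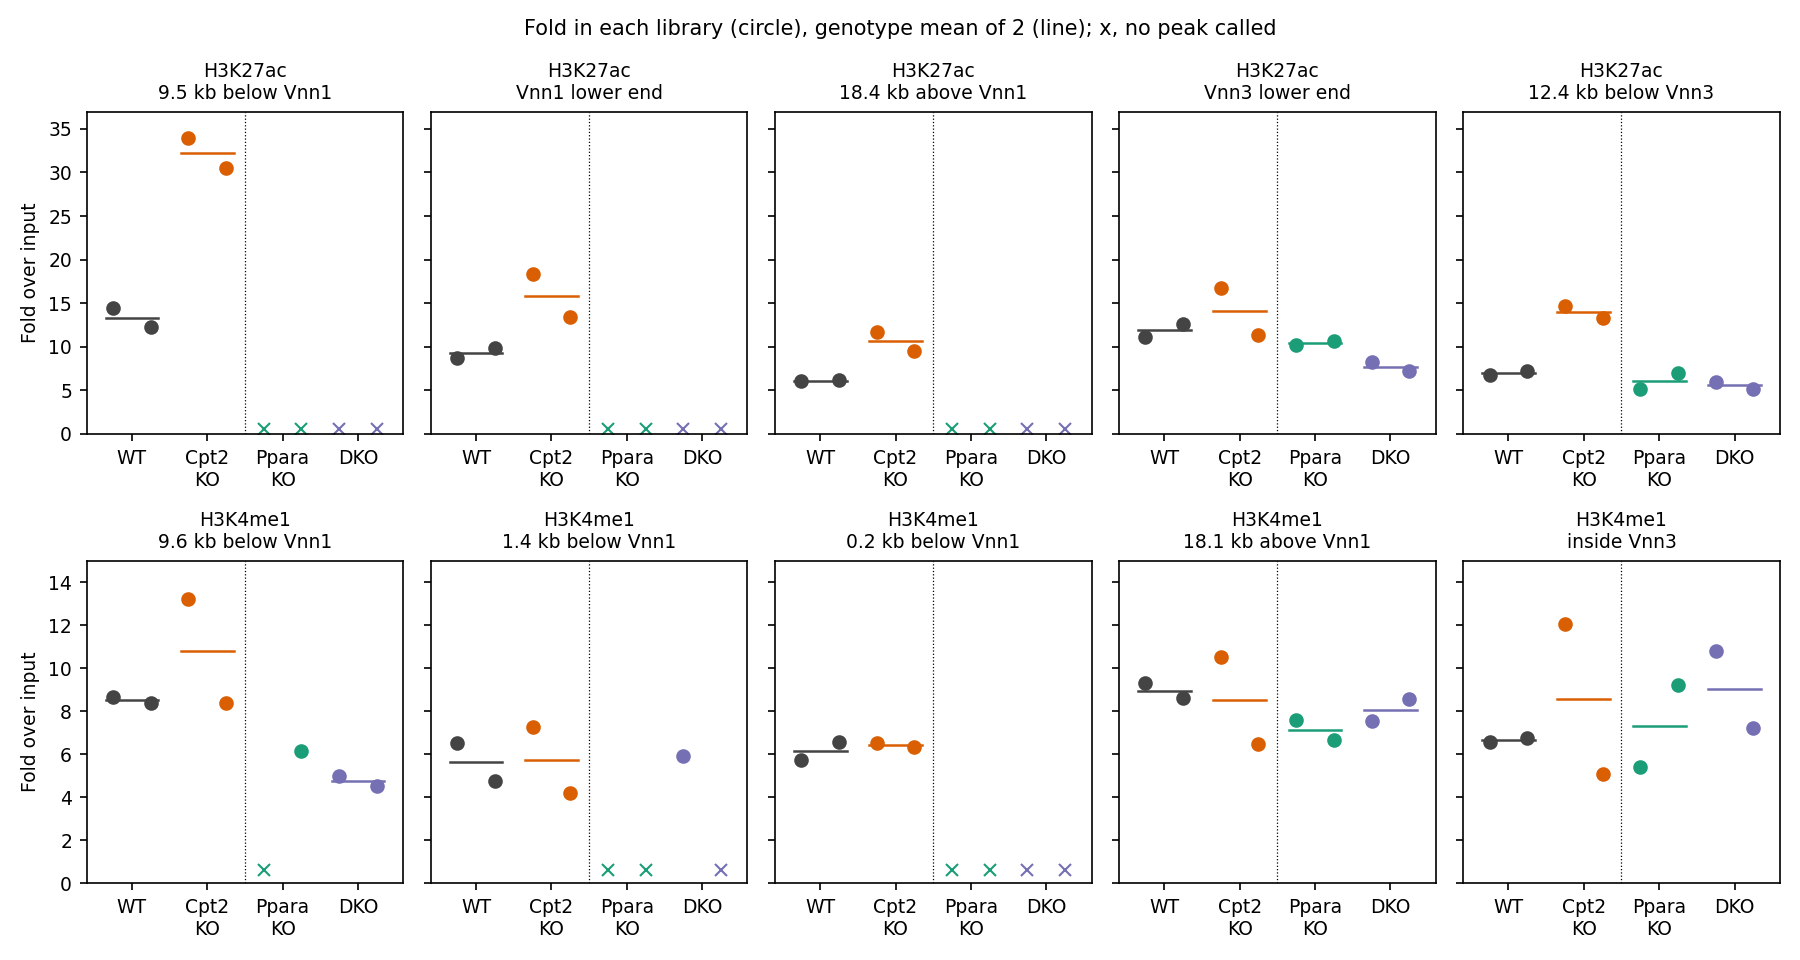
Fold over input in each library at 5 H3K27ac intervals (upper row) and 5 H3K4me1 intervals (lower row) of Vnn1 and Vnn3, grouped by genotype. Circles are libraries, short lines are means of the 2 libraries of a genotype, crosses are libraries with no called peak, placed near 0 without a value, and the dotted line separates Ppara-intact from Ppara-null genotypes. At the 3 Vnn1 H3K27ac intervals the Cpt2 KO values are the highest and all Ppara-null libraries are crosses.

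With no call in any Ppara-null library, there is no measured Ppara-null fold at any H3K27ac interval of Vnn1. The Ppara difference in H3K27ac at Vnn1 is therefore given as the pattern of calls, with no size and no test.

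Ppara state coincided with a series of numbers inside the peak names: 6833 to 6848 in Ppara-null and 9548 to 9589 in Ppara-intact libraries, the same numbers for both marks. What these numbers stand for is not given in the sources used here, and they cannot be told apart from the Ppara genotype. In bulk liver, fewer cells carrying a mark and less mark per cell cannot be told apart either.

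Among Ppara-intact livers, those lacking Cpt2 had the higher H3K27ac values at Vnn1. Both Cpt2 KO livers were above both WT livers at each of the 3 intervals. The ratio of mean folds as deposited, Cpt2 KO over WT, was 2.42 at the distal element, 1.71 at the lower end of the gene and 1.74 at the interval near Taar1. These ratios are not centred. Without centring, the median log2 difference over all H3K27ac intervals called in all 8 libraries was 0.19 in the same direction. For a test, log2 folds were centred on the median of each library, and limma was fitted to the 33572 intervals called in at least 4 libraries, with an uncalled library set to the lowest fold of its own list. The distal element was higher in Cpt2 KO livers by 1.05 on the log2 scale (SE 0.28, Benjamini-Hochberg adjusted p = 0.0331). It was the 1 of 7 members with a call in both genotypes that passed, where 11.6% of all such intervals passed in either direction, and 2 of the 7 had an unadjusted p under 0.05. The lower end of Vnn1 differed by 0.54 (SE 0.29, limma adjusted p = 0.223) and the interval near Taar1 by 0.56 (SE 0.29, adjusted p = 0.195). The spread in this fit is pooled with filled values, which are nearly equal within a group by construction. Its SEs therefore do not measure the spread between livers alone. At these 3 intervals they were somewhat larger than those of the fit without filled values, given next. In a limma fit of the 4 WT and Cpt2 KO libraries alone, which fills no value, the 3 intervals differed by 1.05 (SE 0.23, adjusted p = 0.0193), 0.53 (SE 0.26, adjusted p = 0.204) and 0.56 (SE 0.27, adjusted p = 0.201), where 9.99% of 20947 intervals passed.

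The call at the distal element in the filled fit was lost without WT replicate 2 (limma adjusted p = 0.155), without Cpt2 KO replicate 1 (0.158) or 2 (0.129), and with the smallest peak width of each library as a covariate (0.768). That width was 217 to 223 bases in the Cpt2-null and 198 to 210 in the Cpt2-intact H3K27ac libraries. With it as a covariate 0 of all 33572 intervals passed for Cpt2 KO against WT, against 6813 without it. As the width separates the Cpt2 states, that fit cannot tell width from Cpt2 loss, and the lost call is not particular to this element. Leaving out a WT or Cpt2 KO library leaves a single liver of that genotype. Markers of other liver cells also differed between these livers. Summed H3K27ac folds over stellate markers were 20.2 and 19.6 for WT livers and 56.5 and 43.7 for Cpt2 KO livers. The folds summed for markers were as deposited and not centred. Endothelial markers summed to 71.4 and 61.6 in WT livers against 106.4 and 98.7, macrophage markers to 21.2 and 13.1 against 31.7 and 27.6, and lymphocyte markers to 0 in both WT livers against 10.7 and 19.5. In each of these lists both Cpt2 KO sums lay above both WT sums, while hepatocyte markers overlapped, at 86.3 and 67.2 against 71.0 and 68.4. Cholangiocyte markers went the other way, with sums of 12.45 and 19.65 in WT livers, all from Sox9, and 0 in both Cpt2 KO livers. Neutrophil markers had no peak in any of these livers. The part of the peak width and of these cells in the result was not tested.

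In DKO livers, which lack both genes, no H3K27ac peak was called at Vnn1 either, so that a Cpt2 difference could not be measured in Ppara-null livers.

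**Figure D3:**
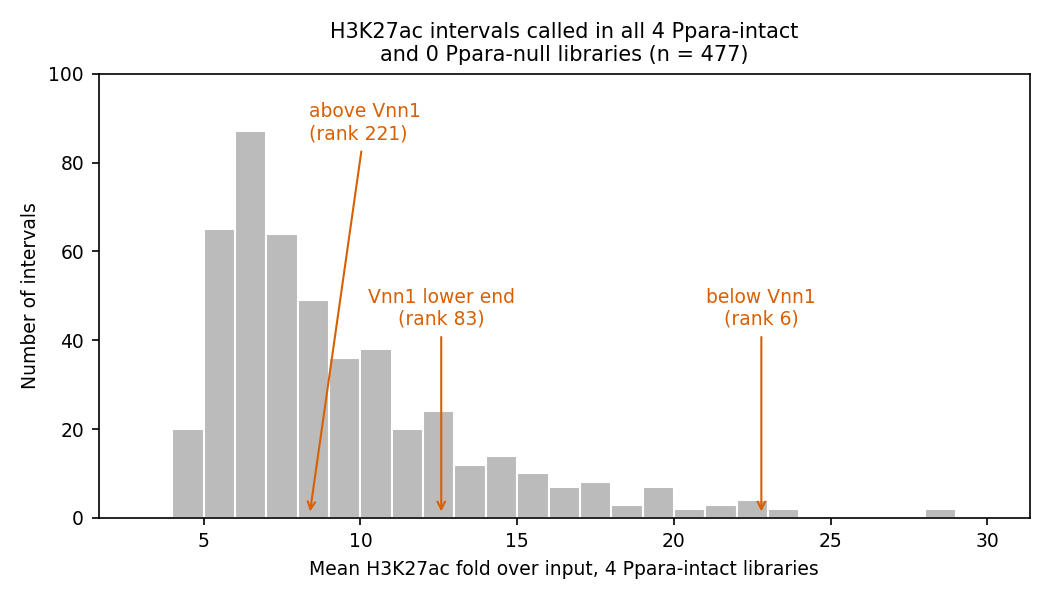
Histogram of the mean H3K27ac fold over the 4 Ppara-intact libraries for the 477 intervals called in all 4 of them and in 0 Ppara-null libraries. Arrows mark the 3 Vnn1 intervals, with mean folds of 22.8, 12.6 and 8.37 and ranks of 6, 83 and 221.

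Vnn3 kept its main H3K27ac interval without Ppara. Over the Vnn3 start, chr10:23851416-23853007, WT livers gave 11.2 and 12.6, Cpt2 KO livers 16.7 and 11.4, Ppara KO livers 10.2 and 10.6, and DKO livers 8.25 and 7.21. All 4 Ppara-null values were below all 4 Ppara-intact values. Here Ppara-null was lower by 0.54 on the centred log2 scale (SE 0.18), which did not pass (limma adjusted p = 0.0861) in the fit of the 18281 intervals called in all 8 libraries. Cpt2-null against Cpt2-intact was -0.37 (SE 0.18, adjusted p = 0.181) and the interaction -0.74 (SE 0.36, adjusted p = 0.35).

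Only 2 of the 15 H3K27ac members, both at Vnn3, were called in all 8 libraries, against 27.8% of all intervals. The other, chr10:23838352-23839718, lies 12.4 kb below Vnn3 and is slightly nearer to Slc18b1, which encodes a vesicular polyamine transporter, at 11.1 kb. WT livers gave 6.71 and 7.25, Cpt2 KO livers 14.7 and 13.3, Ppara KO livers 5.17 and 7.0, and DKO livers 6.0 and 5.17. Both Cpt2 KO values stood well above the rest, and the WT and Ppara KO ranges overlapped. It was lower in Ppara-null livers by 0.80 on the log2 scale (SE 0.19, limma adjusted p = 0.0213), as 1 of the 2 members in a fit where 7.34% of intervals passed and 4.15% were lower. The call was lost without Cpt2 KO replicate 1 (adjusted p = 0.0593) or 2 (0.0776), Ppara KO replicate 1 (0.0836) or DKO replicate 2 (0.0825), and with the width covariate (0.0581). Ppara KO against WT gave -0.20 (SE 0.26, adjusted p = 0.674), and 0 of the 2 members passed for it, 0 at an unadjusted p under 0.05, against 6.42% of all intervals. Cpt2 KO against WT gave 0.78 (SE 0.26, adjusted p = 0.0652), and 1.00 (adjusted p = 0.0253) without centring. For that contrast 0 of 2 passed by limma, 1 at an unadjusted p under 0.05, against 13.5% of all intervals. The interaction was -1.20 (SE 0.37, adjusted p = 0.177), with 0 of 2 past the threshold, 1 unadjusted, against 0.00547%.

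The remaining Vnn3 intervals of H3K27ac were weaker or called in fewer libraries. The interval chr10:23837134-23838233 lies 13.8 kb below Vnn3 and is nearer to Slc18b1, at 9.71 kb. There WT livers gave 15.25 and 8.25, Cpt2 KO livers 9.68 and 10.2, Ppara KO livers 8.50 and 8.47, and DKO replicate 1 gave 7.01, with no call in DKO replicate 2. Here WT replicate 1 stood apart and the other called values lay close together. With DKO replicate 2 at its lowest fold, Ppara-null differed by -0.88 (SE 0.40, limma adjusted p = 0.205). Inside Vnn3, chr10:23864084-23864748 was called in WT replicate 1 at 8.20, in Cpt2 KO at 9.41 and 6.58 and in Ppara KO at 5.10 and 7.69, but not in WT replicate 2 or the DKO livers. WT replicate 1 alone held 3 short intervals, at 5.87, 3.8 and 7.2, and Cpt2 KO replicate 1 alone held 1 at 6.00 just in front of the Vnn3 start.

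**Figure D4:**
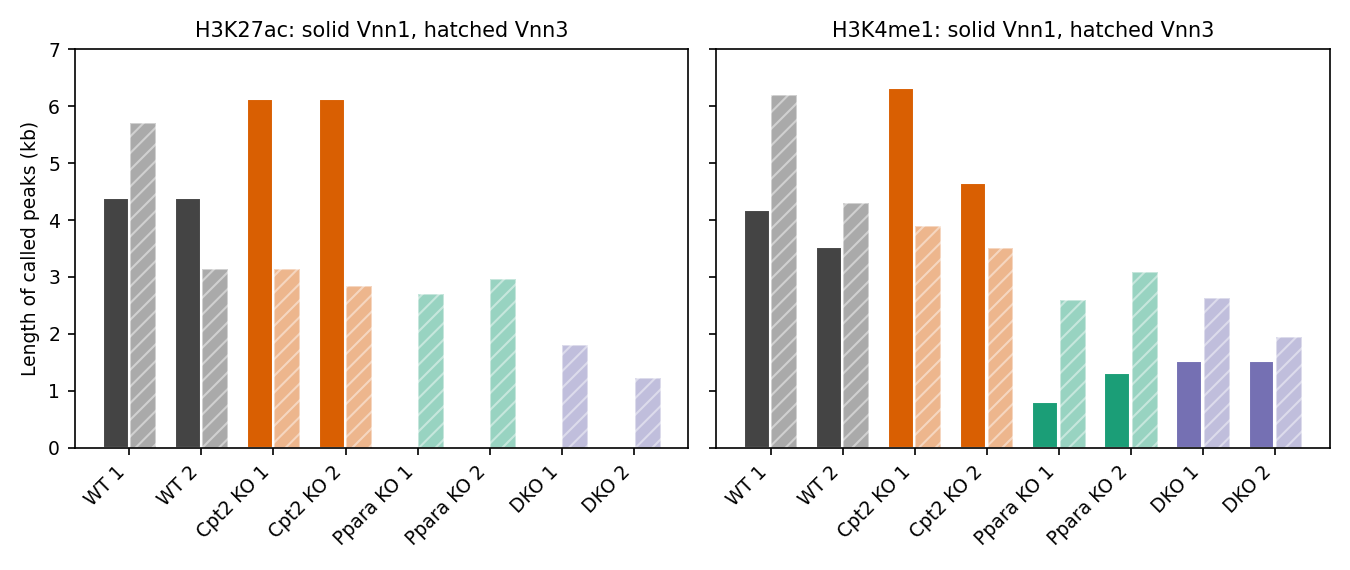
Summed length in kb of the called peaks over the intervals of Vnn1 (solid bars) and Vnn3 (hatched bars) in each library, H3K27ac on the left and H3K4me1 on the right, coloured by genotype. H3K27ac peaks at Vnn1 cover 4.39 to 6.13 kb in Ppara-intact and 0 kb in Ppara-null libraries, and those at Vnn3 cover 1.23 to 5.70 kb.

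H3K27ac peaks at Vnn1 covered 4.39 kb in each WT liver and 6.12 and 6.13 kb in the Cpt2 KO livers. At Vnn3 the lengths were 5.70 and 3.14 kb for WT livers, 3.13 and 2.85 kb for Cpt2 KO livers, 2.69 and 2.96 kb for Ppara KO livers, and 1.80 and 1.23 kb for DKO livers. The DKO livers thus had the least acetylated length at Vnn3, while WT replicate 1 had the most. The Vnn3 lengths include the intervals that are nearer to Slc18b1. The difference between the genes in their response was not tested.

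H3K4me1, the enhancer mark, was still called at Vnn1 in Ppara-null livers, over shorter stretches. Over the distal element, chr10:23883600-23886571, folds were 8.67 and 8.40 in WT and 13.2 and 8.40 in Cpt2 KO livers. In the Ppara-null livers Ppara KO replicate 1 had no peak, Ppara KO replicate 2 had 6.17, and the DKO livers had 5.0 and 4.5. All called Ppara-null values were thus below all Ppara-intact values. What was called there was short: a single peak of 316, 420 and 303 bases, between 23885189 and 23885642. The largest peak of the same interval was 1305 and 1067 bases long in WT and 2363 and 1517 in Cpt2 KO livers. With Ppara KO replicate 1 at its lowest fold the Ppara difference was -1.15 on the log2 scale (SE 0.30, limma adjusted p = 0.0903), which did not pass. With that library set instead to the highest fold among the weakest peaks of its list, it was -0.96 (adjusted p = 0.04999), just inside the threshold.

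Immediately below Vnn1, at chr10:23894254-23894713, H3K4me1 was called at 5.73 and 6.55 in WT and at 6.5 and 6.35 in Cpt2 KO livers, and in no Ppara-null liver. This was the 1 of 26 H3K4me1 members called in all 4 Ppara-intact and 0 Ppara-null libraries, against 0.604% of all H3K4me1 intervals. Counting only peaks with a −log10 q of 10 or more, no member had that pattern. Peaks in at least 1 Ppara-intact and 0 Ppara-null libraries were found for 11 of the 26 members, 5 at Vnn1 and 6 at Vnn3, against 24.9% of all intervals.

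Other H3K4me1 intervals of Vnn1 were called in Ppara-null livers too. At chr10:23892606-23893943, 1.41 kb below Vnn1, WT livers gave 6.5 and 4.75, Cpt2 KO livers 7.25 and 4.20, and DKO replicate 1 gave 5.91, with no call in the other 3 Ppara-null libraries. The element near Taar1, chr10:23922739-23924085, was called in all 8 libraries. WT livers gave 9.30 and 8.61, Cpt2 KO livers 10.5 and 6.47, Ppara KO livers 7.60 and 6.67, and DKO livers 7.56 and 8.59. These ranges overlapped, and Ppara-null differed by -0.19 (SE 0.20, limma adjusted p = 0.719). That H3K4me1 interval spans the H3K27ac interval that had no peak in a Ppara-null liver. The summed length of H3K4me1 peaks at Vnn1 was 4.17 and 3.52 kb for WT livers, 6.33 and 4.66 kb for Cpt2 KO livers, 0.808 and 1.31 kb for Ppara KO livers, and 1.52 kb for both DKO livers. All 4 Ppara-null lengths were thus below all 4 Ppara-intact lengths, a difference given without a test.

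At Vnn3 the H3K4me1 pattern differed from interval to interval, and no H3K4me1 interval spanned the start. Inside the gene, chr10:23863939-23864786 was called in all 8 libraries. WT livers gave 6.58 and 6.75, Cpt2 KO livers 12 and 5.08, Ppara KO livers 5.38 and 9.21, and DKO livers 10.8 and 7.23, so that the genotypes overlapped. Ppara-null differed there by 0.13 (SE 0.27, limma adjusted p = 0.868). Just downstream of the start, chr10:23853452-23854394 had 8.75 and 7.75 in the WT livers, 5.23 and 5.75 in the Cpt2 KO livers, 5.0 in Ppara KO replicate 1 and no call in the other 3 Ppara-null libraries. Nearer to the start but also inside the gene, chr10:23852001-23852385 was called in Ppara KO replicate 2 at 4.52 and in the DKO livers at 4.5 and 3.44. It was called in no Ppara-intact library. It was 1 of 2 H3K4me1 members called in at least 1 Ppara-null and 0 Ppara-intact libraries, against 16.7% of all intervals. In front of the start, chr10:23850914-23851317 was called in Cpt2 KO replicate 1 at 5.50, Ppara KO replicate 2 at 4.89 and the DKO livers at 5.13 and 4.33. The smallest peak widths of these 4 libraries were 211, 216, 210 and 221 bases, and those of the other 4 H3K4me1 libraries were 196 to 200, so that the calls in front of the start moved with this width. The folds at chr10:23863939-23864786 split in the same way. They were 7.23 to 12 in the 4 libraries with the wider smallest peak and 5.08 to 6.75 in the other 4. The part of this width in these calls and folds was not tested. The interval chr10:23852001-23852385, inside the gene, was not called in Cpt2 KO replicate 1.

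The other H3K4me1 intervals of Vnn3 lay below the gene, up to 14.1 kb away, or inside it. Those starting at 23836585, 23838358 and 23839106 are nearer to Slc18b1, at 9.41 to 11.4 kb. At chr10:23836585-23838176, WT livers gave 9.94 and 10.6, Cpt2 KO livers 12.6 and 6.67, Ppara KO livers 6.5 and 9.57, and DKO replicate 1 gave 5.44, with no call in DKO replicate 2. At chr10:23839106-23839722, WT replicate 1 gave 6.4, Cpt2 KO livers 11.8 and 5.0, Ppara KO livers 3.86 and 8.83, and DKO livers 9.76 and 9.17, with no call in WT replicate 2. The first of these was highest among Ppara-intact livers, while the second was as high in DKO livers as in most others, and neither passed for Ppara state (-0.89 and 0.44, limma adjusted p = 0.196 and 0.522). At the second, folds were 8.83 to 11.8 in the 4 libraries with the wider smallest peak. In the other libraries they were 3.86 to 6.4 where called. At the first, the folds of these sets of libraries overlapped. Inside Vnn3, chr10:23862735-23863614 was called in 6 libraries, not in Cpt2 KO replicate 1 or DKO replicate 1, at 6.09 to 10.6. The called folds there overlapped between libraries with a wider and a narrower smallest peak. Also inside, chr10:23854680-23855237 was called at 5.60 to 7.02 in 4 libraries, namely Ppara KO replicate 1, Cpt2 KO replicate 2 and both WT livers. These are the 4 libraries with the narrower smallest peak, and the part of this width was not tested. The remaining 9 Vnn3 and 5 Vnn1 intervals of H3K4me1 were called in 1 to 3 libraries each, at folds of 4.0 to 7.2, among them 1 found in Ppara KO replicate 2 alone.

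No H3K4me1 member passed for Ppara or Cpt2 state in either limma fit. Of the 2 members called in all 8 libraries, as were 19% of all intervals, 0 passed for Ppara state and 0 had an unadjusted p under 0.05, where 0.128% of all intervals passed. Of the 6 members called in at least 4 libraries and in each genotype, 0 passed for Ppara state and 2 had an unadjusted p under 0.05, where 0.218% passed. For the Cpt2 state the counts were 0 of 6 adjusted and 1 unadjusted, and 0% of all intervals passed.

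H3K9ac was available as interval positions in 1 WT and 1 Cpt2 KO liver, so that only presence is given and nothing was tested. At the lower end of Vnn1, chr10:23894522-23895459 was called in both livers, over 641 bases in WT and 937 in Cpt2 KO; 55.2% of all H3K9ac intervals were called in both. A second Vnn1 interval, chr10:23895668-23895913, was called in the Cpt2 KO liver only, as were 23.9% of all. An interval beginning just inside Vnn3, chr10:23851516-23853048, was called in the WT liver only, as were 20.8% of all, although H3K27ac was present there in both Cpt2 KO livers. No H3K9ac interval lay over the distal element of Vnn1.

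Other genes of pantetheine and coenzyme A metabolism were read at their strongest H3K27ac interval called in all 8 libraries. That interval had its midpoint in the gene body or within 20 kb of it. Of 18 genes, 0 were higher and 2 were lower in Ppara-null livers by limma, where 7.34% of all intervals passed and 4.15% were lower, with a median log2 difference of -0.26, against -0.01 over all intervals tested. The intervals read were the strongest of each gene, while those over all take in any strength and position. These are not like sets, and a shift of the 18 genes as a group was not tested. Pank1, a pantothenate kinase that catalyses the first step of coenzyme A synthesis, had 24.4 and 32 in the WT livers, 22.1 and 20 in the Cpt2 KO livers, 12.4 and 16.2 in the Ppara KO livers, and 15.25 and 18.6 in the DKO livers. It fell by 0.68 on the log2 scale (SE 0.14, adjusted p = 0.0105), and 3 of its 29 intervals had the strict pattern of peaks in all 4 Ppara-intact and 0 Ppara-null libraries. Ppcs, which joins the kinase's product to cysteine, fell by 0.49 (SE 0.11, adjusted p = 0.0177), from 24.4 to 43.2 in the Ppara-intact livers to 19.8 to 29.1 in the Ppara-null livers. Ppcs and the kinase gene Pank3 each had 1 interval with the strict pattern. Counted gene by gene, 5 of the 152 H3K27ac intervals of the 18 genes had it, against 0.725% of all intervals. Biotinidase (Btd), the other vanin relative listed, differed by -0.40 (SE 0.17, adjusted p = 0.185).

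For the Cpt2 state, 0 of the 2 members called in all 8 libraries passed by limma (0 unadjusted), where 12.3% of all intervals did. In that fit 896 intervals were higher and 1349 lower, and without centring 3504 were higher and 432 lower. Of the 18 genes of the lists above, 1 was higher and 1 lower. For Cdo1, the cysteine dioxygenase of taurine synthesis, the interval read lies 13427 bases from the gene body. It was higher in Cpt2-null livers by 0.34 (SE 0.08, limma adjusted p = 0.0209). All 4 Cpt2-null values lay between 66.6 and 83.0 and the others between 46.0 and 51.5. For Enpp3, an ectonucleotide pyrophosphatase, the interval read lies 5635 bases from the gene body. It fell by 0.94 (SE 0.20, adjusted p = 0.0131), from between 12.6 and 21.0 to between 8.29 and 10.8. Whether these intervals belong to Cdo1 and Enpp3 or to other genes was not tested. For H3K4me1, 15 of these genes could be tested and 0 passed for Ppara state, with 3 at an unadjusted p under 0.05.

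Established Ppara targets were read at intervals called in all 8 libraries, of which Vnn1 has none. Of 12 listed genes, 10 had an H3K27ac interval called in all 8 libraries, and 1 of them, the fatty acid hydroxylase gene Cyp4a10, was lower in Ppara-null livers (by 1.67 on the log2 scale, SE 0.19, limma adjusted p = 0.000414), where 4.15% of all intervals were lower. Counted gene by gene, 3 of the 122 H3K27ac intervals of this list had the strict pattern, against 0.725% of all intervals. They included 1 each at Fgf21, a fasting hormone gene, and Acot1, an acyl-CoA thioesterase gene, with mean Ppara-intact folds of 19.2 and 12.2. Vnn1 had 3 such intervals, the strongest at 22.8. Among the 16 protein-coding genes within 200 kb of the vanin genes, the strict pattern was seen only in the interval near Taar1, which also falls within 20 kb of Taar2. Rps12 and Slc18b1 were the neighbours with an H3K27ac interval called in all 8 libraries, and their Ppara differences were 0.38 (SE 0.20, adjusted p = 0.271) and 0.10 (SE 0.26, adjusted p = 0.857).

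The H3K27ac intervals whose profile over the 8 libraries was most like the distal element were found among 33571 others by the root mean square difference of centred log2 fold, each less its own mean. They lay in the bodies of Etv4, Pik3c2g, Zranb3, Yeats2 and Chrna2, with differences of 0.12 to 0.19 and Pearson r of 0.994 to 1.000 over 8 libraries. The Etv4 interval had 13.0 and 11.6 in WT and 28.4 and 24.4 in Cpt2 KO livers, and all 5 were uncalled in every Ppara-null library. As the Ppara-null values were filled in all of them, the likeness rests on the 4 Ppara-intact libraries and the shared absence of calls.

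The H3K27ac lists held 44454 to 48929 peaks with median folds of 6.69 to 8.21, and H3K4me1 lists 61189 to 72151 peaks with median folds of 5.83 to 6.13. Read depth is not given by the files. Within 1 kb, H3K27ac peaks covered 5 of 5 hepatocyte markers (Alb, Apoa1, Ttr, Serpina1a and Tat) in every library, with summed folds of 65.3 to 101.8 in Ppara-null and 67.2 to 86.3 in Ppara-intact livers. Endothelial markers were also covered 5 of 5 everywhere. Ppara KO livers gave sums of 81.7 and 67.2, and DKO livers 103.1 and 110.2, beside the WT and Cpt2 KO sums above. Macrophage markers (2 to 5 of 5 covered) summed to 17.0 and 16.6 for Ppara KO livers but 41.9 and 37.4 for DKO livers, and stellate markers (3 to 5) to 21.5 and 21.0 against 37.5 and 42.7. In these 3 lists all 4 Cpt2-null sums thus lay above all 4 Cpt2-intact sums. Neutrophil markers were covered in 0 to 1 of 5 in Ppara-null (0 to 7.4) and 0 in Ppara-intact livers, with S100a8, S100a9, Ly6g and Cxcr2 at 0 in all 8 libraries. Cholangiocyte markers were covered in at most 1 of 5 and lymphocyte markers in at most 2, and Krt19, Krt7, Epcam, Spp1, Cd3e and Nkg7 had no peak. The part of these cell types in the results was not tested. Within 5 kb of the deleted genes the peaks gave a partial view of the labels: at Ppara 1 H3K27ac and 2 H3K4me1 intervals were called in Ppara-intact libraries only and 1 H3K27ac interval in Ppara-null libraries only, and at Cpt2 1 H3K27ac interval was called in Cpt2-intact libraries only.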

How the data were processed

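Peaks of 16 libraries were called one library at a time by the authors, with BWA and MACS2 2.1.0 on mm10 per the submitters' processing notes. The fold enrichment over pooled input is a ratio deposited by the authors for each peak, beside its −log10 p and −log10 q. The peak names of 1 library, H3K27ac Ppara KO replicate 2, spell the build differently, and its coordinates were used as mm10. Consensus intervals were deposited as positions only, as were the H3K9ac intervals of both libraries.

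An interval's value in a library was the highest fold of the peaks overlapping it by at least 1 base, and an interval between both genes went to the nearer one. Log2 folds were centred on each library's median over intervals called in all 8 libraries and fitted with limma 3.58.1 (R 4.3.3; lmFit, eBayes with trend) as 4 genotype means, with Benjamini-Hochberg adjustment over all intervals and a threshold of 0.05. Intervals called in at least 4 libraries were fitted a second time with uncalled libraries at their list's lowest fold (2.26 to 2.50 for H3K27ac), or, added after seeing the data, at the highest fold among peaks with a −log10 p of at most 7.5 (3.80 to 4.47). Members of the second fit were tested only where each genotype compared had a call, since a filled value is no measurement. A limma fit of the WT and Cpt2 KO libraries alone, over intervals called in all 4, was also added after seeing the data. A gene of a list was read at its interval with the highest mean fold called in all 8 libraries, within 20 kb of the body. The shares over all intervals given beside such genes take in intervals of any strength. The planned search for most-like intervals required a Vnn1 interval called in all 8 libraries and was changed to the second fit. On simulated folds, the first H3K27ac fit recovered 56% of changes of 1 log2 unit between Ppara states and 98% of changes of 2, and the second 30% and 92%. For the fit of 4 libraries and H3K27ac, changes of 1 log2 unit were recovered in 46% and of 2 in 100% of cases, with 7.63% false calls, when the simulated spread was limma's moderated variance. With each interval's own variance as the spread it recovered 0% of either, so that its power depends on the spread assumed. Sequences come from RefSeq (GRCm38.p6). The members and gene lists were chosen with earlier results of these data known. Replicates are separately labelled livers, 2 per genotype, and p-values of the fits without filled values measure the spread between them. Those of the second fit rest in part on filled values and do not measure that spread alone. Pooled inputs were not analysed here on their own. Values of some single genes of the lists are not reported here.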

Additional observations from a re-analysis of the deposited data

How the results depend on the processing

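Counts of members past the threshold moved with several settings, and neither H3K27ac call described above was kept in all of them. For H3K27ac and Ppara state, 1 member passed among those called in all 8 libraries, 0 with the smallest peak width as a covariate, and between 0 and 1 when a single library was left out. For Cpt2 KO against WT, 0 members passed, 1 without centring, and 1 when intervals called in at least 4 libraries entered with uncalled libraries at their lowest fold. The 1 H3K4me1 member called in Ppara-intact libraries alone became 0 with a −log10 q of 10 or more. One direction reversed: the H3K4me1 interval inside Vnn3, 0.13 for Ppara state, became -0.28 with the width covariate and ranged from -0.19 to 0.44 with a library left out, never past the threshold. A window of 5 kb left 7 H3K27ac, 15 H3K4me1 and 3 H3K9ac intervals, without the distal element of Vnn1. Of 403 alternative values for 30 results, 378 kept direction and side of the threshold. A result that did not pass at first counts as kept when it still did not pass. The alternatives include a rule of at least 50% of the peak inside the interval, which left the counts of all H3K27ac fits unchanged. The replicate numbers did not pair the livers (correlations of same-numbered deviations from -0.06 to 0.17 for H3K27ac and from -0.49 to 0.10 for H3K4me1), and with a replicate block 1 H3K27ac member still passed for Ppara state and no other count of members changed. Without centring, the median of all H3K27ac intervals was 0.25 higher on the log2 scale in Cpt2-null libraries, and the Cpt2 differences are relative to that median. Folds exist only where a peak was called, so that mark below the caller's limit was not measured, and its depth in reads is unknown.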
